A study of Mus musculus with 6 samples.

Results

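Integrins and the proteins that couple them to actin at focal adhesions were followed in Noto-GFP-positive and GFP-negative cells from the posterior of mouse embryos. Members were the probe sets with a single gene symbol in the platform annotation whose symbol begins with Itga or Itgb and goes on with a digit or ends in v, l, m, x or e, together with fibronectin (Fn1) and a named set of adhesion proteins. This gave 43 of 18193 genes, read by 101 of 45101 probe sets: 28 found by the symbol pattern and 15 by name. Fermt1 and Ptk2 were on the name list, had no such probe set here and were not analysed here. The symbol pattern also took in Itgb1bp1, Itgb1bp2 and Itgb3bp, which are not integrin chains.

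The arrays compared 3 samples of GFP-positive cells with 3 samples of GFP-negative cells, all from heterozygous Noto-GFP embryos of both sexes on a mixed 129S3;ICR background at embryonic day 8.5, with a median somite number of 6. GFP-positive cells carry the reporter of Noto, a homeobox gene of the node and of notochord progenitors, and GFP-negative cells are all other cells of the dissected region, so they are a mixture of tissues. Both groups carry the reporter allele, and both were dissociated with 1% trypsin. Pools 1, 2 and 3 held tissue of 23, 39 and 52 embryos and gave about 2600, 4300 and 6600 GFP-positive cells; each pool gave 1 array of each group, and the question was which genes distinguish the sorted cells.

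Integrins are receptors made of an alpha and a beta chain, and the pair decides which matrix protein is bound. The short tail of the beta chain binds talin and kindlin, which switch the receptor on. The complex of ILK, PINCH and parvin, the kinase FAK with paxillin and p130Cas, and the actin-binding proteins vinculin, zyxin, alpha-actinin and tensin then join the site. In the early embryo, fibronectin and its receptors are needed for the mesoderm and for an ordered notochord and somites, and laminin receptors attach epithelia to basement membranes.

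Talin 2 was the gene of the set that passed the test over all genes: Tln2 was 2-fold higher in GFP-positive cells. The laminin receptor chain Itga6, paxillin (Pxn) and alpha-actinin 1 (Actn1) were also higher on all 3 GFP-positive arrays than on any GFP-negative array, and Itga4, Itga2b, Itga9 and tensin 1 (Tns1) were lower on all 3. None of these 7 passed in that fit. With the pool as a block Itga6, Itga4 and Tns1 did. The other kept probe sets of Actn1 had the opposite sign. Fibronectin and vinculin had log2 fold changes of 0.07 and -0.06.

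Of the 43 genes, 31 had a probe set that passed the filter on low values and were measured, and 64 of the 101 probe sets passed it. The filter asked for at least 3 of the 6 arrays at or above the array's 40th percentile, which lay between 11.7 and 18.4 intensity units. Of the 64, 2 passed through the arrays of a single group, a dim one of Itgav and a dim one of Parvb. Where several probe sets of a gene were kept, the one with the highest mean stood for the gene, on the log2(intensity + 32) scale, where differences of dim genes are understated. Limma was fitted over all 12628 genes with Benjamini-Hochberg adjustment and a threshold of 0.05.

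The test called 2.95% of all genes higher in GFP-positive cells and 1.71% lower, or 4.66% in either direction. Among the 31 members, 1 was higher (Tln2) and 0 lower in limma; at an unadjusted p under 0.05, 3 were higher (background 12.7%) and 3 lower (background 10%), or 9.68% of the members each way. The share of members, 3.23%, was thus near the background of all genes. The median log2 fold change of the members was 0.09, against 0.01 for all genes, and the median absolute value was 0.33, against 0.29. Groups did not overlap for 4 members that were higher (background 15.6% of all genes) and 4 that were lower (background 12.2%), or 12.9% of the members in each case. The sign was the same in all 3 pools for 12 members that were higher (background 28.4%) and 6 that were lower (background 24.9%). A change of at least 2-fold was fitted for 3 members, Itgb1, Tln2 and Tns1, or 9.68% (background 6.13%). In bulk samples, fewer cells of a type and less RNA per cell cannot be told apart.

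Both arrays of a pool came from the same embryos, and with the pool as a block the same fit called 3 members higher, Tln2, Itga6 and Zyx (background 7.76%), and 2 lower, Itga4 and Tns1 (background 5.99%). As a share, 16.1% of members passed, beside a background of 13.8%. Without pool 1, 5 members were higher (background 20.1%) and 6 lower (background 18.2%), of 29 measured, or 37.9% in either direction (background 38.3%). Actn1 among the higher and Itgb5 among the lower had other probe sets that passed in the opposite direction. Without GFP-negative array 1 alone the counts were 2 and 6, and 22.2% of all genes passed. No member passed without GFP-positive array 2 or 3, GFP-negative array 2 or 3, or pool 2 or 3, settings in which 0.0343% to 1.41% of all genes passed.

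**Figure D1:**
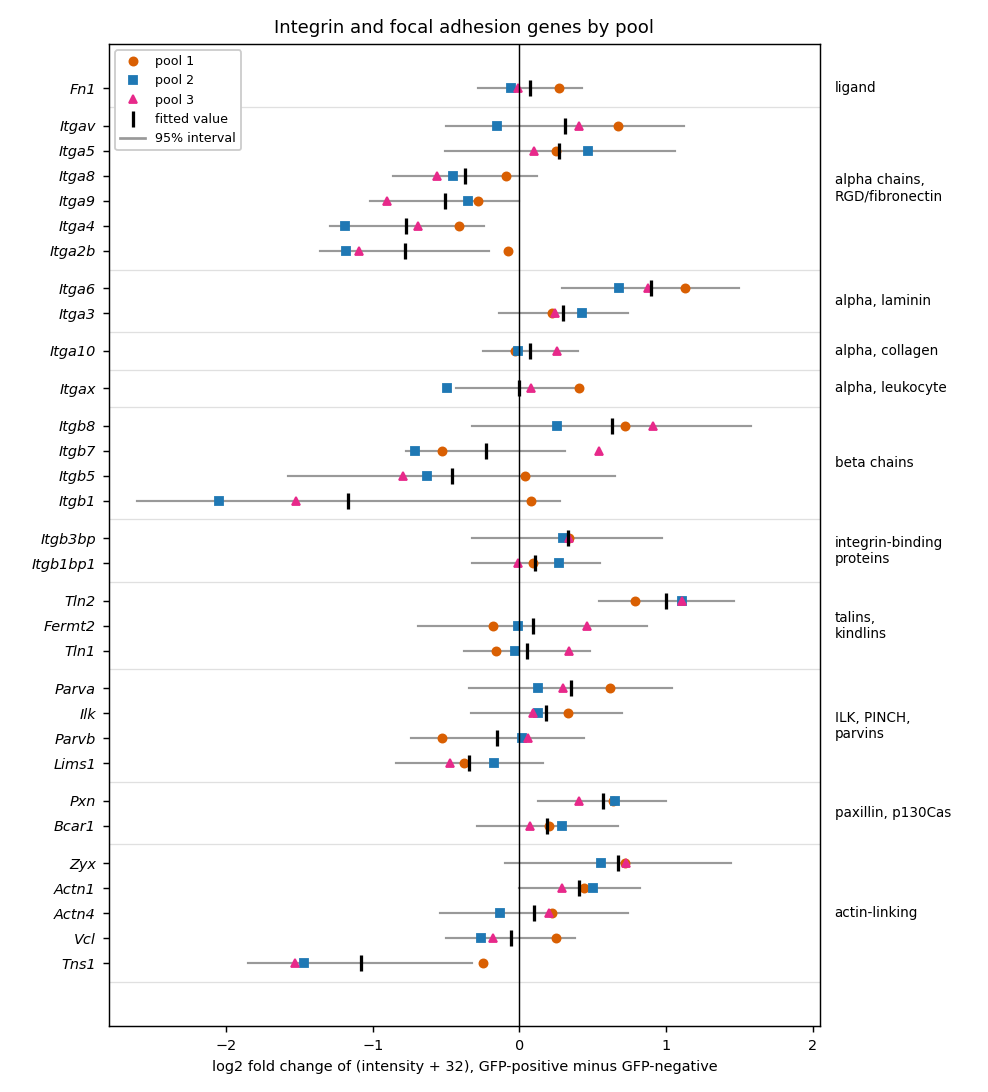
Log2 fold change of intensity + 32, GFP-positive minus GFP-negative, for the 31 measured genes grouped by role; symbols are the 3 pools, black ticks the fitted values and grey lines their 95% intervals. Tln2 lies above 0 in all 3 pools at 0.79, 1.11 and 1.11, whereas Itgb1 lies at 0.08 in pool 1 and at -2.05 and -1.52 in pools 2 and 3.

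Pool 1 stood apart from the others. The 3′ over 5′ ratio of the Gapdh control probe sets was 14 on the GFP-positive and 15.4 on the GFP-negative array of pool 1, whereas pools 2 and 3 ranged from 1.6 to 2.22. For beta-actin the corresponding ratios were 14.9 and 22.7, against 1.9 to 2.75. The correlation of GFP-negative array 1 over kept probe sets was 0.964 with the GFP-positive array of its own pool, but 0.938 and 0.914 with the other arrays of its group. GFP-negative array 1 was nearer to GFP-positive array 1 than to the mean of GFP-negative arrays 2 and 3 for 21 of the 31 members (67.7%) and for 61.2% of all genes. The part of RNA quality in the results below was not tested.

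The dissected region holds several tissues, and their markers moved with the sort; the genes named have the smallest adjusted p of their list, not the largest fold. Of 13 measured node and notochord markers 11 were higher, Foxa1, Foxa2 and Bicc1 among them (tied with Nodal), with a summed intensity of 14396 to 18822 on GFP-positive and 2135 to 3074 on GFP-negative arrays; T was not measured here. Of 12 paraxial mesoderm markers 6 were higher (6694 to 7590 against 2470 to 3015), Pcdh8, Ripply2 and Foxc1 among them, and of 10 endoderm markers 4 were higher, Apela and Trh among them, and 1 lower, Hhex (1559 to 4020 against 843 to 1586). Of 9 endothelial markers 7 were lower (412 to 778 against 1669 to 2384), Sox7, Kdr and Etv2 among them, and of 11 lateral mesoderm markers 8 (443 to 752 against 2729 to 6126), Tbx20, Prrx1 and Gata6 among them. Sox17, counted on both the endothelial and the endoderm list, had the opposite sign to the other endothelial markers, at 0.61, and did not pass. Of 11 blood and platelet markers 2 were lower, Tal1 and Hemgn (383 to 5876 against 12344 to 28966), and of 8 neural plate markers 1, Nkx1-2 (2197 to 2589 against 3304 to 3456). Among 5 myeloid markers none passed in limma, and at an unadjusted p under 0.05 2 were lower (73 to 111 against 132 to 320). With the pool as a block 9 of the 11 blood and platelet markers were lower, 10 of the 12 paraxial markers were higher, 6 endoderm markers were higher and 1 lower, 2 neural markers were higher and 4 lower, and 1 myeloid marker was lower. Of the markers called, Dand5, Cd34 and Tbx5 passed the filter through a single group, as did Pf4, called with the block alone. Over all genes, 2.95% were higher and 1.71% lower, and with the pool as a block 7.76% and 5.99%. No marker was listed at 0. The part of these cell types in the results below was not tested.

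For the members called in either fit, promoter sequence was taken from RefSeq (GRCm38.p6), which had an entry for Zyx, Itga4 and Tns1; Tln2 and Itga6 are named only. The 250 bases before the start of transcription are shown 5′ to 3′ on the strand of the gene, so that the gene that was higher and those that were lower can be compared. Capitals mark the GC box, GGGCGG, on either strand.
Zyx, chr6:42349578-42349827, plus strand: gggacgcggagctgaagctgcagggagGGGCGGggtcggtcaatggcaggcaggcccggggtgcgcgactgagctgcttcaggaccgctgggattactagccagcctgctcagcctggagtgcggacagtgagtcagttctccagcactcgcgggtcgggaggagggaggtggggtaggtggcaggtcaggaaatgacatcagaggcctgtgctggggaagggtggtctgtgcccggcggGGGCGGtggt
Itga4, chr2:79255176-79255425, plus strand: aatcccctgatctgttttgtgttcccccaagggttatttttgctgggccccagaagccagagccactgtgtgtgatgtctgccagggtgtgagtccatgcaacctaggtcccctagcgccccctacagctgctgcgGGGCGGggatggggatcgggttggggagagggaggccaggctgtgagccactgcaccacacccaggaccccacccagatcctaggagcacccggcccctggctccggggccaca
Tns1, chr1:74124549-74124798, minus strand: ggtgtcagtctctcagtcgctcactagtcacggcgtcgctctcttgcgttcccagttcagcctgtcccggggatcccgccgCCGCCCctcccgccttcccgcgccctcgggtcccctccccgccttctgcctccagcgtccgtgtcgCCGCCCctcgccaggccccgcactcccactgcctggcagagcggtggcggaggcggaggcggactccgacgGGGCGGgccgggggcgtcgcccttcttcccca
The Zyx window held 2 GC boxes, the Itga4 window 1 and the Tns1 window 3. Of all 32851 such windows 32.7% held a GC box, as did 18 of the 37 windows found for member genes. These windows came from 31 of the 43 members, which are not the same 31 as those measured. Some of them, such as Itgb6, were not measured, while Tln2 and Itga6 had no window. The GATA motif AGATAA (9.99% of all windows), the ETS core CCGGAA (12%) and the CArG box bound by SRF (1.47%) were also searched on both strands, with no overlap between motifs removed. None of these 3 was found in the windows shown; among member windows, 3, 6 and 3 held them, and the CArG box stood before Vcl, Fermt2 and Itgb6.

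Fibronectin, the ligand in the set, showed no difference beyond the spread between arrays. Fn1 intensities were 4566, 4414 and 4572 on GFP-positive arrays and 3769, 4587 and 4595 on GFP-negative arrays, so the groups overlapped. Its log2 fold change was 0.07 ± 0.15 (SE, limma, adjusted p = 0.817), with a 95% interval from -0.28 to 0.43. Its second probe set had 233, 105 and 115 on GFP-positive and 117, 40 and 63.1 on GFP-negative arrays. That probe set was higher within each pool, by log2 values of 0.84, 0.92 and 0.62, and passed over probe sets with the pool as a block in limma (adjusted p = 0.0268; background 4.93% higher) but not without it (adjusted p = 0.262).

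The alpha chains that bind fibronectin or other ligands with an RGD motif had log2 fold changes of both signs, from -0.78 to 0.31. Itga4, which pairs with Itgb1 to bind fibronectin and the endothelial and mesodermal adhesion protein Vcam1, had 24.1, 26.4 and 32.4 on GFP-positive arrays and 42.6, 101 and 72.3 on GFP-negative arrays. All 3 GFP-positive values lay below all GFP-negative ones and close to the array medians, which ranged from 19.8 to 28. In limma the log2 fold change was -0.77 ± 0.23 (SE, limma, adjusted p = 0.0965), and adjusted p = 0.0399 with the pool as a block. Over the 17 alternatives the adjusted p lay between 0.00457 and 0.745. Its 2 other kept probe sets, both dim, had -0.43 and -0.29.

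Itga2b, the platelet and early blood chain that pairs with Itgb3, had 30.4, 21.6 and 23.4 on GFP-positive arrays and 33.9, 89.1 and 86 on GFP-negative arrays. The groups did not overlap, but GFP-negative array 1 lay close to the GFP-positive values. The log2 fold change was -0.78 ± 0.25 (SE, limma, adjusted p = 0.117), and within pools it was -0.08, -1.18 and -1.09. Without pool 1 it was -1.13 (adjusted p = 0.000987), and over the alternatives the adjusted p lay between that value and 0.787. Of the blood markers, the globin genes Hbb-y and Hbb-bh1 made up most of the summed intensity of GFP-negative array 1. Gata1, which was not called without the block, had 21.8, 30.5 and 36.1 on GFP-positive and 44.6, 193 and 317 on GFP-negative arrays. Its GFP-negative array 1 was again nearest to the GFP-positive values. Tal1 and Hemgn, the blood markers called without the block, had 8.31 and 1.15 on GFP-positive array 1. On GFP-negative array 1 they had 119 and 154, so blood markers did not share the small difference of Itga2b in pool 1.

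Itga9, which binds tenascin and the fibronectin variant with an extra domain, had -0.51 ± 0.22 (SE, limma, adjusted p = 0.224), with groups that did not overlap and negative values in all 3 pools. Itga8, a receptor of nephronectin, had -0.37 ± 0.21 and overlapping groups. Itgav, a chain of vitronectin and fibronectin receptors, had 1748, 709 and 843 on GFP-positive arrays and 1084, 789 and 625 on GFP-negative arrays. Its highest value in each group was that of pool 1, the groups overlapped, and the log2 fold change was 0.31 ± 0.35 (SE, limma, adjusted p = 0.633).

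Itga5, the main fibronectin receptor chain, did not exceed 78.8 on any array, and its probe sets other than the one that stands for it did not exceed 28. The probe set that stands for it had 78.8, 37.7 and 18.7 on GFP-positive arrays and 61, 18.4 and 15.4 on GFP-negative arrays. Pool 1 was highest in both groups, and the log2 fold change was 0.27 ± 0.34 (SE, limma, adjusted p = 0.669). Its other kept probe set had 6.26, 1.06 and 15.4 on GFP-positive and 20.4, 17.5 and 28 on GFP-negative arrays and the opposite sign, at -0.46. A level of Itga5 in these cells is therefore uncertain.

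Both measured laminin receptor chains had positive log2 fold changes. Itga6, the chain of epithelial laminin receptors, had 916, 569 and 524 on GFP-positive arrays and 401, 342 and 270.2 on GFP-negative arrays. Every GFP-positive value was above every GFP-negative one, and pool 1 was the highest in each group. Its log2 fold change was 0.90 ± 0.26 (SE, limma, adjusted p = 0.0948), with adjusted p = 0.0169 with the pool as a block and a range from 0.00434 to 0.679 over the alternatives. Its second kept probe set had 0.66 and groups that did not overlap either. Itga3, another laminin receptor chain, had 0.30 ± 0.19 (SE, limma, adjusted p = 0.393) and was higher in all 3 pools, and Itga7, that of muscle, was not measured.

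Collagen and leukocyte chains were at or near the low end of the arrays. Itga10 had 17.5, 19.8 and 18.8 on GFP-positive and 18.7, 20.1 and 10.3 on GFP-negative arrays. Itgax, a chain of myeloid cells, had 15.5, 8.48 and 15.6 against 3.75, 24.7 and 12.9. Both lay under or about the array medians, and neither passed. Itga1, Itga2, Itgae, Itgal and Itgam were not kept, and neither were Itgb2, Itgb2l, Itgb4, Itgb6 and Itgb1bp2. Apart from Itgb3, no probe set of the 12 genes that were not kept exceeded 32 on any array.

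Itgb1, the beta chain shared by most matrix receptors, had 264, 388 and 492 on GFP-positive arrays and 249, 1708 and 1476 on GFP-negative arrays. GFP-negative array 1 was the lowest of all 6, while GFP-negative arrays 2 and 3 were far brighter than any GFP-positive array. In limma the log2 fold change was -1.17 ± 0.63 (SE, limma, adjusted p = 0.309), and within pools it was 0.08, -2.05 and -1.52. Without GFP-negative array 1 it was -2.01 (adjusted p = 0.00217) and without pool 1 it was -1.79 (adjusted p = 8.64e-05). Over the alternatives the adjusted p lay between 8.64e-05 and 0.895. The second probe set had 227, 294 and 336 on GFP-positive and 198, 828 and 662 on GFP-negative arrays, so that GFP-negative array 1 was again the lowest of all, and another had a log2 value of -0.45.

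Itgb3, the beta chain of platelet and vitronectin receptors, was not kept, since 2 of the 6 arrays had it above the limit. Its brighter probe set had 0.526, 0.788 and 0.73 on GFP-positive arrays and 0.854, 97.3 and 179 on GFP-negative arrays. As for Itga2b and Itgb1, GFP-negative array 1 lay with the GFP-positive arrays. Its other probe set did not exceed 17 on any array. In the fit with no filter, the brighter one had a log2 value of -1.56 (limma, adjusted p = 0.27).

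The probe sets of Itgb5, the beta chain of another vitronectin receptor, disagreed. The brightest had 212, 431 and 456 on GFP-positive and 206, 684 and 815 on GFP-negative arrays, and a log2 fold change of -0.46 ± 0.49 (SE, limma, adjusted p = 0.609). The other 3 kept probe sets had 0.59, 0.62 and 0.63; the first of these had 365, 415 and 501 on GFP-positive and 457, 218 and 195 on GFP-negative arrays. Without pool 1 all 4 passed over probe sets in limma, the first lower, at -0.71 (adjusted p = 0.00678), and the others higher, at 0.72 to 1.03 (adjusted p from 0.00178 to 0.00789). The names of 2 of them end in x_at, a class whose probes can bind other transcripts, and no direction is given for Itgb5.

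**Figure D2:**
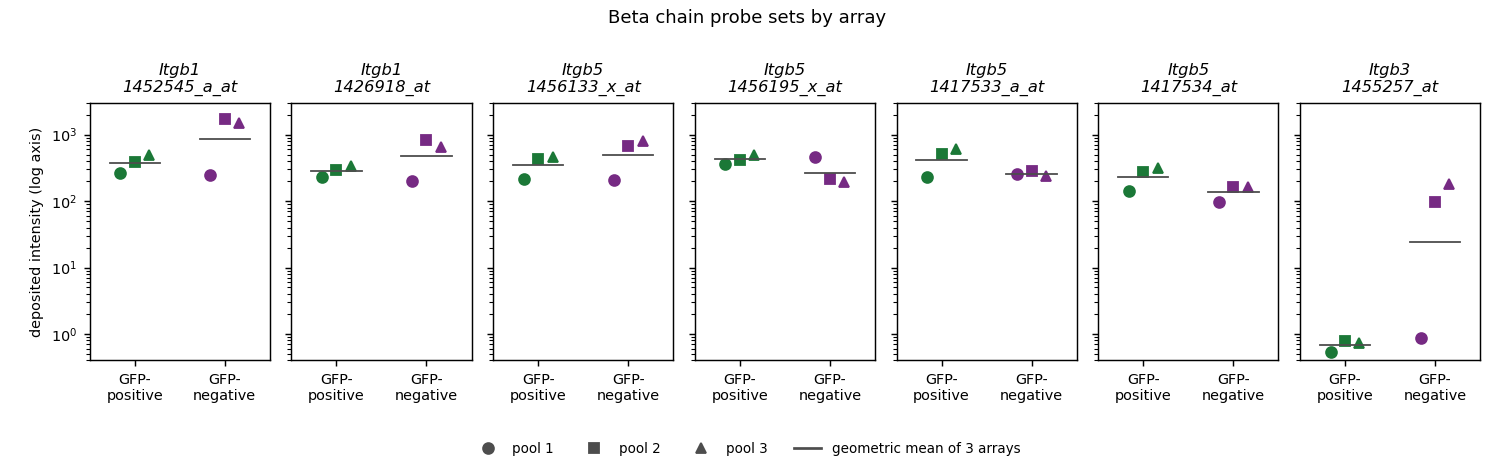
Deposited intensity on a log axis for 7 probe sets of Itgb1, Itgb5 and Itgb3 on each array, GFP-positive left and GFP-negative right; symbols are pools and lines geometric means of 3 arrays. GFP-negative array 1 lies with the GFP-positive arrays for Itgb1 (249) and Itgb3 (0.854), and the first probe set of Itgb5 runs opposite to its 3 other probe sets in pools 2 and 3.

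Of the remaining beta chains, Itgb8, which binds latent TGF-beta with Itgav, had 312, 125 and 122 on GFP-positive and 177, 98.4 and 49.9 on GFP-negative arrays. It was higher in each pool and its groups overlapped; the log2 fold change was 0.63 ± 0.41 (SE, limma, adjusted p = 0.398). Itgb7, of lymphocytes, lay between 2.69 and 27.4 on all 6 arrays. The integrin-binding proteins Itgb1bp1 and Itgb3bp had log2 fold changes of 0.11 and 0.33, and neither passed.

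Talins link the beta tail to actin and are the last step in switching an integrin on. Tln2 had 258, 264 and 332 on GFP-positive arrays and 136, 106 and 137 on GFP-negative arrays. The groups were well apart, and both arrays of pool 1 lay within or close to the values of the other pools. The log2 fold change was 1.00 ± 0.20 (SE, limma, adjusted p = 0.0346), with a 95% interval from 0.54 to 1.46, and within pools it was 0.79, 1.11 and 1.11. A second kept probe set had 73.8, 82.7 and 95.8 on GFP-positive and 39.4, 45.1 and 41 on GFP-negative arrays, a log2 difference of 0.65; the remaining one was not kept and did not exceed 3.16 on any array.

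The direction of Tln2 held in every alternative, but its call did not. Over the 17 alternatives the log2 fold change stayed between 0.82 and 1.11, and the adjusted p lay between 0.00151 and 0.634. It did not pass in limma without GFP-positive array 2 or 3 (adjusted p = 0.144 and 0.19), without GFP-negative array 2 or 3 (0.167 and 0.0924), without pool 2 or 3 (0.634 and 0.442), or with no filter (0.0533). Over the 27821 probe sets its adjusted p was 0.0593.

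Tln1, the talin of most cells, had 88.5, 98.1 and 127 on GFP-positive and 103, 101 and 94.4 on GFP-negative arrays. The groups overlapped, and the log2 fold change was 0.05 ± 0.19 (SE, limma, adjusted p = 0.905) with a 95% interval from -0.38 to 0.48. Its other kept probe sets had log2 values of 0.31 and 0.20, and the second kept one of Tln2 had 0.65. On the probe sets that stand for the genes, the interval of Tln1 ends below that of Tln2, which starts at 0.54. The difference between the talins was not tested. Fermt2, a kindlin that binds the same tail, had 1965, 1196 and 1280.3 on GFP-positive and 2230.4, 1199.9 and 923 on GFP-negative arrays, with pool 1 highest in both groups and a log2 fold change of 0.09 ± 0.34.

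In the complex of ILK, PINCH and parvin, none of 4 genes passed in limma, and none had an unadjusted p under 0.05 (0 genes). Parva had 0.35 ± 0.30, with 109, 179 and 151 on GFP-positive and 59.8, 161 and 116 on GFP-negative arrays. Ilk, the pseudokinase at the centre of the complex, had 0.18 ± 0.22 and was higher in all 3 pools, by 0.33, 0.13 and 0.09. Lims1, which encodes PINCH, had -0.34 ± 0.22 and was lower in all 3 pools. Another of its probe sets had a larger difference, with 292, 299 and 289 on GFP-positive and 432, 661 and 632 on GFP-negative arrays and a log2 difference of -0.88 ± 0.23 (SE, limma over probe sets, adjusted p = 0.0952, and 0.0268 with the pool as a block). Parvb had -0.15 ± 0.26 on its brighter probe set; the dim one had 1.7, 1.32 and 1.39 on GFP-positive and 17.5, 21.6 and 36.6 on GFP-negative arrays, and it passed the filter through the GFP-negative arrays alone.

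Pxn, the scaffold paxillin, had 552, 497 and 486 on GFP-positive and 343, 305 and 359 on GFP-negative arrays. The groups did not overlap, and the order held in all 3 pools, at 0.64, 0.65 and 0.41. Its log2 fold change was 0.57 ± 0.19 (SE, limma, adjusted p = 0.127), with adjusted p = 0.0557 with the pool as a block and a range from 0.0176 to 0.819 over the alternatives. Its other kept probe set had 0.18. Bcar1, which encodes p130Cas, a docking protein phosphorylated at adhesions, had 0.19 ± 0.21 and overlapping groups.

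The actin-linking proteins had log2 fold changes of both signs, from -1.08 to 0.67. Zyx, encoding zyxin, a protein of adhesions under tension, had 223, 346 and 473 on GFP-positive and 123, 225 and 272 on GFP-negative arrays. The groups overlapped, since pool 1 was lowest and pool 3 highest in both, while the GFP-positive array was higher in each pool, by 0.72, 0.56 and 0.73. In limma the log2 fold change was 0.67 ± 0.34 (SE, limma, adjusted p = 0.273); with the pool as a block the SE was 0.16 and adjusted p = 0.0345, and the range over the alternatives was 0.0206 to 0.827.

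The second Zyx probe set, whose name ends in x_at as above, was the 1 member probe set that passed over all 27821 probe sets, where 1.26% were higher and 0.55% lower, or 1.81% in all. It had 84.3, 51.2 and 87.6 on GFP-positive and 19, 2.35 and 7.51 on GFP-negative arrays. The groups were far apart, and the log2 difference was 1.35 ± 0.22 (SE, limma, adjusted p = 0.0256). Of its GFP-negative arrays only 1 reached the 40th percentile, and with no filter it did not pass (limma, adjusted p = 0.0576). At an unadjusted p under 0.05, 8 of the 64 member probe sets were higher (background 8.89%) and 8 lower (background 10%), or 12.5% each way, among them the dim probe sets of Itgav and Parvb that passed the filter through a single group, and 0 were lower at the adjusted threshold. With the pool as a block, 6 member probe sets were higher and 4 lower, where 4.93% of all probe sets were higher and 4.93% lower, or 9.86% in all. These 4 include the dim Parvb probe set, which passed the filter through the GFP-negative arrays alone. Without pool 1, 10 of 56 were higher (background 14.2%) and 10 lower (background 16.3%), or 35.7% (background 30.5%).

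Tns1, encoding tensin, which binds beta tails at mature adhesions, had 29.7, 29.6 and 32.7 on GFP-positive and 41.4, 138 and 156 on GFP-negative arrays. The GFP-positive values lay near the array medians, and GFP-negative array 1 lay close to them. The log2 fold change was -1.08 ± 0.34 (SE, limma, adjusted p = 0.107), with adjusted p = 0.0361 with the pool as a block and a range from 0.000247 to 0.733 over the alternatives. Within pools it was -0.25, -1.47 and -1.53, and without pool 1 it was -1.50. Its 2 other kept probe sets, both dim, had -0.43 and -0.29.

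Actn1, an alpha-actinin that crosslinks actin, had 1150.3, 1175 and 1219 on GFP-positive and 842, 819 and 993 on GFP-negative arrays. The groups did not overlap, and the log2 fold change was 0.41 ± 0.18 (SE, limma, adjusted p = 0.225). Its 2 other kept probe sets, both dim, had -0.46 and -0.58, and their mean with the first was -0.21. Without pool 1 Actn1 passed over genes as higher, at 0.40 (limma, adjusted p = 0.0449). In that setting the 2 dim probe sets passed over probe sets as lower, at -0.59 and -0.96 (limma, adjusted p = 0.0293 and 0.00402). No direction is given for Actn1. Actn4 had 0.10 ± 0.28. Vcl, encoding vinculin, had 1136, 865 and 871 on GFP-positive and 951, 1042 and 988 on GFP-negative arrays, and a log2 fold change of -0.06 ± 0.19 (SE, limma, adjusted p = 0.873) with a 95% interval from -0.50 to 0.38.

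**Figure D3:**
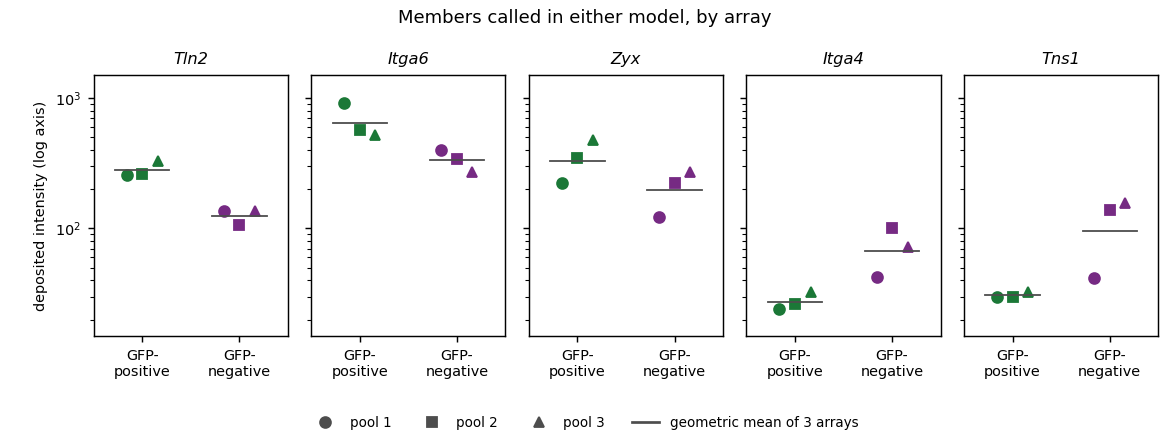
Deposited intensity on a log axis for the 5 genes called without or with the pool as a block, on each array, GFP-positive left and GFP-negative right; symbols are pools and lines geometric means of 3 arrays. Tln2 and Itga6 are higher and Itga4 and Tns1 lower on every GFP-positive array, while Zyx overlaps between groups and is higher within each pool.

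Where a gene had several probe sets, most but not all agreed. Of the 20 genes with more than 1 kept probe set, 6 had both signs, namely Actn1, Fermt2, Itga5, Itgav, Itgb3bp and Itgb5. Tln2, Itga6, Itga4, Tns1, Itgb1 and Zyx had the same sign on all their kept probe sets. For Itga4 and Tns1 the other kept probe sets were dim and did not exceed 24.5 and 30.6 on any array. Probe sets of a gene read the same RNA, so this is no replicate of the comparison.

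**Figure D4:**
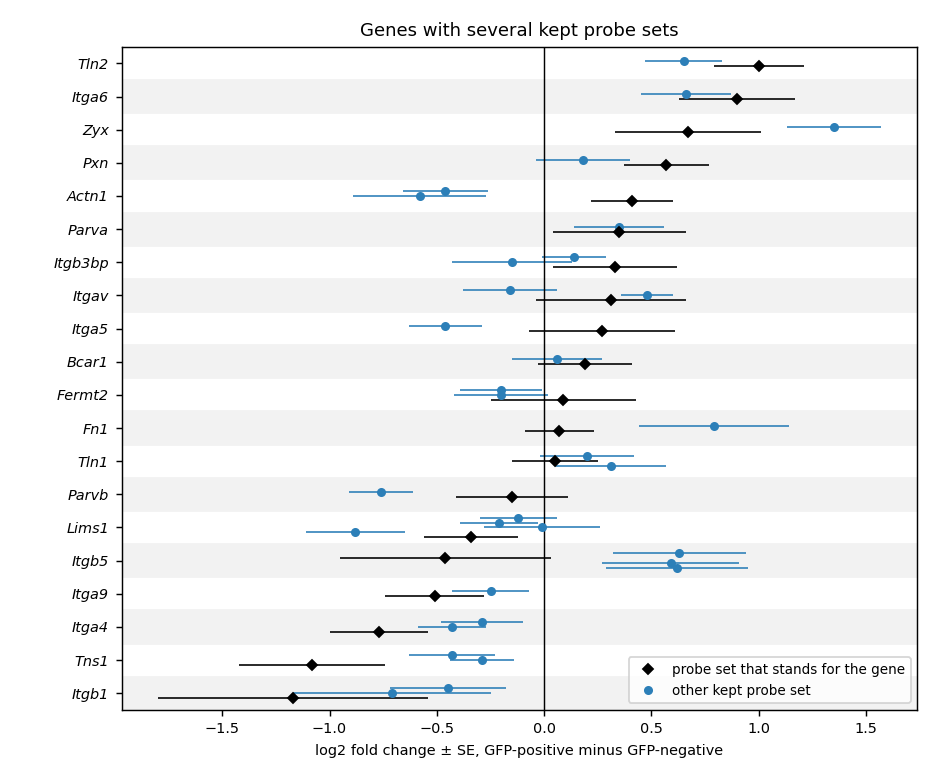
Log2 fold change ± SE from limma over all probe sets, GFP-positive minus GFP-negative, for the 20 genes with several kept probe sets; diamonds stand for the gene and circles are its other probe sets. Tln2 and Itga6 lie above 0 and Itga4, Tns1 and Itgb1 below 0 on every probe set, while Itgb5 and Actn1 lie on both sides.

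Matrix proteins that integrins bind were counted next. Of 24 measured matrix ligands that are not members, 6 were higher and 5 lower, with a median log2 fold change of 0.20, against 0.01 for all genes, of which 4.66% passed. Whether ligands and receptors differ in this was not tested. Of the ligands called, Vtn passed the filter through the GFP-positive arrays alone and Vcam1 through the GFP-negative arrays alone. Vtn, vitronectin, had 645, 604 and 629.8 on GFP-positive and 4.48, 1.15 and 3.16 on GFP-negative arrays, while its receptor chain Itgav overlapped between groups. Ccn2, a matricellular protein that integrins bind, had 580.3, 512 and 343 on GFP-positive and 75.8, 63.3 and 49.3 on GFP-negative arrays (2.41 ± 0.24, SE, limma, adjusted p = 0.00252). Col1a1, a chain of fibrillar collagen, had 18.9, 30.9 and 23.1 against 115, 146 and 197 (-1.70 ± 0.21, SE, limma, adjusted p = 0.00614).

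A pair of ligands was looked up after their values were seen, because their receptors are described above. Lama1, a laminin chain of early basement membranes, had 210.3, 269 and 307 on GFP-positive and 111, 97.9 and 98.2 on GFP-negative arrays (1.12 ± 0.20, SE, limma, adjusted p = 0.0237). Other laminin chains had log2 fold changes of both signs: Lama4 was lower at -1.07 (limma, adjusted p = 0.0366), as was the laminin partner Nid1 at -1.10 (adjusted p = 0.0394), while Lamb1 at 1.12, Lamb2 at 0.26, Lamc1 at -0.06 and Lama5 at -0.68 did not pass. The groups did not overlap for Lamb1, and with the pool as a block it passed (limma, adjusted p = 0.00754). Lamb2, Lamc1 and Lama5 did not pass with the block either. Vcam1, the cell surface ligand of Itga4, had 0.562, 8.9 and 11.3 on GFP-positive and 51.9, 164 and 153 on GFP-negative arrays (-1.91 ± 0.32, SE, limma, adjusted p = 0.0181). Vcam1 passed the filter on low values through the GFP-negative arrays alone. For Vcam1, as for Itga4, GFP-negative array 1 was the lowest of its group.

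Of 43 other adhesion complex genes that are not members, 1 was higher (background 2.95%) and 0 were lower (background 1.71%) in limma, with a median of 0.06. At an unadjusted p under 0.05, 8 were higher (background 12.7%) and 4 lower (background 10%). The 1 was Cav1, the coat protein of caveolae, with 189, 91.2 and 84.6 on GFP-positive and 14.2, 18.9 and 19 on GFP-negative arrays (1.58 ± 0.26, SE, limma, adjusted p = 0.0166). Csrp1, a partner of zyxin, and Nck2, an adaptor that binds PINCH, had 0.71 ± 0.19 and 0.88 ± 0.25 and did not pass (adjusted p = 0.0769 and 0.0846); with the pool as a block Nck2 passed (adjusted p = 0.0151) and Csrp1 did not (0.0567). With the pool as a block, 7 were higher and 2 lower in this list, and 10 and 6 among the matrix ligands. In that fit 7.76% of all genes were higher and 5.99% lower.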

How the data were processed

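The authors deposited linear intensities of 1-colour arrays, made with GCOS 1.4, per the submitters' processing notes; RNA was amplified through both cycles of an Affymetrix labelling kit, per the labels' protocols. The trimmed mean (2% at each end) was 150 on all 6 arrays, so the authors had scaled them to a common level. No detection calls were used, so low values cannot be told from background, and precision is limited by there being 3 arrays a group. Of 45101 probe sets, 34945 had 1 gene symbol and 932 several, and 64 were controls; all 101 member probe sets matched RefSeq gene identifiers. All per-sample columns were used (0 left out).

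From these, log2(intensity + 32) was fitted with limma 3.58.1 in R 4.3.3 (lmFit, eBayes with a variance trend, group as the only term), over 27821 kept probe sets and again over 12628 genes; the filter is given above. Errors are SEs from limma. Alternatives were other offsets, quantile normalization, other filters, no variance trend, the pool as a block, averaging the kept probe sets of a gene, and each array or pool left out. Per the labels, arrays with 1 number share a pool of embryos. Within pools 1, 2 and 3 the deviations of both arrays from their group means had correlations of 0.542, 0.286 and 0.436. These values cannot show the pairing themselves, since arrays of different pools were not compared and pool 1 stood apart in both groups. The pairing rests on the labels, and the planned fit has no block.

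Members, lists and the rule for named genes (members called in either fit, the largest change of each role, Itgb1, Itga5, Itgav and Fn1, and the 3 smallest adjusted p of each other list) were chosen with earlier results of these data known. Values by array of other members, such as Itgb3, Itgb5, Tln1, Fermt2, Actn1 and Vcl, and of the marker Gata1 fall outside that rule. They were added after they were seen. Protein sequences were planned and are not used here.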

Additional observations from a re-analysis of the deposited data

How the results depend on the processing

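The fit without the block called 1 member gene (higher) and 1 member probe set (higher). The replicate block, with pool as a term, gave 3 genes higher, 2 genes lower, 6 probe sets higher and 4 probe sets lower. Among the lower probe sets was the dim one of Parvb that passed the filter through the GFP-negative arrays alone. With no filter on dim probe sets 0 genes and 0 probe sets were higher, and with the mean over a gene's kept probe sets 3 genes were higher (Itga6, Tln2 and Zyx). Member probe sets higher numbered 2 with the 60th percentile filter and 2 with no variance trend, and those lower 1 with an offset of 16 and 1 with quantile normalization. Leaving out arrays or pools gave 0 to 5 genes higher and 0 to 6 lower, and 0 to 10 probe sets higher and 0 to 10 lower; the upper ends came without pool 1, tied for lower genes by leaving out GFP-negative array 1 (6), which gave 2 genes higher, 5 probe sets higher and 8 probe sets lower.

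Of 511 values of member genes under 17 alternatives, 456 kept sign and side of the threshold, 23 newly passed, 7 (all Tln2) no longer passed, and 25 (12 genes, none called in the planned fit) had the opposite sign. With the mean over probe sets the opposite signs were Actn1 at -0.21, Fermt2 at -0.1, Itga5 at -0.09 and Itgb5 at 0.34; with an offset of 64 Itgax was at 0. With arrays or pools left out, log2 fold changes ranged from -0.13 to 0.26 for Actn4, -0.18 to 0.44 for Fermt2, -0.03 to 0.13 for Fn1, -0.02 to 0.13 for Itga10, -0.03 to 0.58 for Itga5, -0.07 to 0.56 for Itgav, -0.16 to 0.08 for Itgax, -1.03 to 0.38 for Itgb5, -0.35 to 0.11 for Parvb, -0.1 to 0.15 for Tln1 and -0.22 to 0.04 for Vcl. The cause was not tested. Itga10, Itgax and Itgb7 lay at or below the array medians on nearly all arrays, so signal over background limits what their values can show.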
